A study of Mus musculus with 24 samples.

Results

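The enzymes and regulators that build the fatty acids and sphingolipids of myelin were followed in the oligodendrocyte (OL) translatome of the contused mouse spinal cord. The module holds 36 genes, chosen by name for their part in fatty acid synthesis, desaturation, elongation, and ceramide, galactolipid and sphingomyelin formation, with earlier results of these data known. All 36 were among the 21965 genes of the count table, and all 36 passed the filter of at least 10 counts over the 24 libraries that left 17167 genes for testing. The mice carried plp-cre;rpl22HA, an inducible Cre with an HA-tagged ribosomal protein that is expressed after recombination (OL-Ribotag), and every group, naive included, received tamoxifen. Injured mice received a 50 kdyn contusion at T9 and were killed 2, 10 or 42 days later (dpi, days after injury), and naive mice were uninjured. The labels give females of 10 to 12 weeks at injury, and the study's methods give a younger age, so the age is uncertain. At each of the 4 conditions, 3 pools of cord tissue around T9 from 2 mice each gave a library of RNA bound to HA-tagged ribosomes (OL) and a library of total RNA, so that the 8 groups hold 3 libraries each. The Cre is also active in Schwann cells, so their ribosomes can carry the tag too. Naive and dpi 42 tissue was collected at the same age and time after tamoxifen, whereas dpi 2 and dpi 10 mice were younger, and this cannot be told apart from the time after injury.

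Myelin is unusually rich in lipid, and OLs make much of it themselves. Acetyl units from citrate or acetate are joined into palmitate, which is then elongated, desaturated and hydroxylated. Such chains are attached to a sphingoid base to form ceramide, which is turned into galactosylceramide and sulfatide, the typical glycolipids of myelin, or into sphingomyelin and glucosylceramide. Very long chains prevail in myelin sphingolipids. Many of the fatty acid genes are known targets of the transcription factor SREBP1, which Srebf1 encodes.

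Libraries held 25840127 to 32987841 counts, and 3 counts correspond to 0.0840 to 0.127 CPM (counts scaled to a common library size with TMM factors). The 13 OL markers summed to 128960 to 174420 CPM in naive OL libraries against 23756 to 29595 CPM in naive total RNA. They summed to 107380 to 136160, 156010 to 159800 and 117520 to 153670 CPM in OL libraries on dpi 2, 10 and 42. A gene was called where its adjusted p (q) was under 0.05 and its log2 fold change past 0.5, by edgeR's quasi-likelihood test with Benjamini-Hochberg adjustment over all tested genes. OL libraries were uneven in astrocyte RNA. The 8 astrocyte markers summed to 12230 CPM in naive OL library 3, against 2455 and 2231 CPM in the other naive OL libraries. In injured tissue they summed to 9669 CPM in dpi 2 OL library 3, 7624 CPM in dpi 10 OL library 2, and 14710 and 12800 CPM in dpi 42 OL libraries 1 and 2. The other injured OL libraries held 2533 to 4150 CPM and total RNA libraries 6858 to 9394 CPM. Of these markers Hgf alone was under 1 CPM in all OL groups. The 12 myeloid markers summed to 11.6 to 19.8 CPM in naive OL libraries, where 9 of 12 were under 1 CPM, and to 337 to 390 CPM on dpi 10, when all 12 were called up. The 8 Schwann cell markers held 65, 62.7 and 702 CPM in naive OL libraries 1, 2 and 3. Library 3 of these was also the one high in astrocyte markers, and its OL markers had the lowest naive sum. In dpi 42 OL libraries the Schwann cell markers held 1251 to 1479 CPM, with 2 called up and 1 down. The part of Schwann cells in the results was not tested. The 6 fibroblast markers held 48.7 to 92.8 CPM in naive and 532 to 611 CPM in dpi 10 OL libraries. Over all OL libraries the 7 OPC (OL precursor) markers held 2010 to 3533 CPM, the 8 neuron markers 319 to 696, the 6 endothelial markers 10.5 to 28.5, and the 7 of 8 adipocyte markers that passed the filter 14.6 to 139 CPM. Adipoq, Plin1, Cidec and Cfd, which mark adipocytes, were under 1 CPM in every OL group. Of the other adipocyte markers, Fabp4 was called up in OLs at all 3 times, Plin4 was OL enriched in every group and called up on dpi 2 (2.40 ± 0.55, q = 0.00134), and Car3 was called down on dpi 2. The part of adipocytes in the results was not tested. In total RNA the neuron markers went from 10565 to 11433 CPM in naive tissue to 4169 to 5569 CPM on dpi 2. A single dpi 2 pool (libraries 2) carried 2604 and 2414 counts on Y-linked genes against at most 13 elsewhere. For 2 dpi 42 libraries title and description name opposite RNA kinds, and the descriptions, which match the column names, were followed. In bulk RNA, fewer cells of a type and less RNA per cell cannot be told apart.

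In naive OLs the module spanned a wide range of levels per length of exon. Scd2, the main stearoyl-CoA desaturase of the nervous system, led with 3497 ± 187 CPM per kb (mean ± SD, n = 3). Next came Fa2h, which hydroxylates the acyl chains of myelin lipids, with 568 ± 106 CPM per kb, Ugt8a, which makes galactosylceramide, with 375 ± 100.3, and Scd1 with 345 ± 15.02. They were followed by the elongase Elovl5 with 286 ± 39.3, the ceramide synthase Cers2 with 209.7 ± 33.9 and the dihydroceramide desaturase Degs1 with 194 ± 17.7 CPM per kb. The SD of Fa2h and Ugt8a, of Ugt8a and Scd1 or Elovl5, and of Cers2 and Degs1 overlapped, whereas Scd2 stood clear of all others. The genes share their libraries, and library by library Fa2h lay above Ugt8a per kb, and Ugt8a above Elovl5. In naive OL library 3 Ugt8a lay below Scd1, and Cers2 below Degs1, the reverse of the other naive OL libraries. At the other end stood Sgms2 (1.71 ± 0.346 CPM per kb), Fads3 (0.896 ± 0.579), Cers4 (0.724 ± 0.04), Cers6 (0.135 ± 0.0264) and Degs2 (0.0515 ± 0.0461), the last with 10 counts in the 3 naive OL libraries together. Scd1 (chr19:44394455-44407879), Scd2 (chr19:44293674-44306864) and Scd3 (chr19:44203269-44244016) are neighbours on chromosome 19 of GRCm38, as are Fads1 (chr19:10182888-10196877), Fads2 (chr19:10062765-10101746) and Fads3 (chr19:10041569-10060110). Of the stretches of 50 bases in their transcripts, 4.56%, 3.97% and 6.57% of Scd1, Scd2 and Scd3 occur in other genes, each other among them, against 0.152% and 0.127% for Fads2 and Fads3. Acaca (30.4%) and Me1 (28.3%) share more with repeats and gene copies, and Cers1 shares 42.7% of its exon bases with other genes, chiefly Gdf1 on the same strand, so counts given to Cers1 are uncertain. Strandedness of the counting is not given in the sources used here.

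Promoter stretches are shown for Fasn, Acss2 and Elovl5, members that fell together in OLs, and for the ceramide synthases Cers2 and Cers6, which moved in opposite directions. RefSeq windows on GRCm38.p6 (250 bases before to 50 after a start) matched 32 of 36 members in 48 windows. Scd1, Scd2, Fads1 and Fa2h were not among them. Of 3 motifs searched on both strands, TCACNCCAC (the sterol regulatory element, SRE, in this spelling) was in 0 of the 48 windows and in 1.24% of all 32851 windows. CACGTG (E-box, its own reverse complement) was in 12.5% of member windows against 7.15% of all windows, and CCAAT (the NF-Y box) in 47.9% against 37.4%. None of these shares was tested. A match describes letters, and no match says only that these letters are not in the window. Capitals mark CCAAT, its reverse complement ATTGG, or CACGTG, and all stretches run 5′ to 3′ on the strand of the gene. Fasn, Acss2 and Elovl5, which fell in OLs at all 3 times, hold CCAAT 3 times, 1 time and 2 times in these stretches, with 2 of those in Fasn overlapping. Elovl5 and Cers2 hold 1 E-box each, and Cers6, which rose, holds a CCAAT and an E-box as this stretch of Cers2 does. Cers2 has 2 windows, and only 1 is shown, from 200 to 101 bases before its start. The same stretch of the other window holds neither motif.
Fasn, chr11:120824548-120824647, minus strand: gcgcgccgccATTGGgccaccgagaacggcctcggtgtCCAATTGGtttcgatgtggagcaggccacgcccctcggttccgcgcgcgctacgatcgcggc
Acss2, chr2:155517943-155518042, plus strand: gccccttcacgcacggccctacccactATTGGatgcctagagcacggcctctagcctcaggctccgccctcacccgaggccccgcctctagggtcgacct
Elovl5, chr9:77917195-77917364, plus strand: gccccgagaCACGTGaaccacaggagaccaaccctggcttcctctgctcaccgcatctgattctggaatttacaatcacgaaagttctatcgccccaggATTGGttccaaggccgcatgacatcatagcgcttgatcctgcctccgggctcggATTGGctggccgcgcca
Cers2, chr3:95314990-95315089, plus strand: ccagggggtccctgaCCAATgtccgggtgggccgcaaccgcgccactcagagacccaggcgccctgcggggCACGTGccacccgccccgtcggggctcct
Cers6, chr2:68861341-68861440, plus strand: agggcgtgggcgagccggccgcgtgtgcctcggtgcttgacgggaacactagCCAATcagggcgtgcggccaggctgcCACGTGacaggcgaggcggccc

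The question of OL enrichment is which members held a larger share of the RNA on tagged ribosomes than of total RNA. In naive tissue 24 of 36 members were OL enriched and 7 were OL depleted, against 21.7% and 28.6% of all tested genes. The median over the members was 1.27 log2 against -0.27 over all genes. The 3 galactolipid enzymes were enriched, Fa2h by 2.96 ± 0.17 (log2 ± SE, q = 3.28e-12), Ugt8a by 2.58 ± 0.23 and the sulfatide-forming sulfotransferase Gal3st1 by 2.33 ± 0.18. So was Aspa, which frees acetate from N-acetylaspartate (2.83 ± 0.25). Enriched too were 4 of 5 elongases (Elovl1 2.75 ± 0.12, Elovl7 2.67 ± 0.17, Elovl5 2.27 ± 0.11 and Elovl6 1.14 ± 0.12). The same held for the 3 stearoyl-CoA desaturases (Scd2 2.30 ± 0.10, Scd3 2.01 ± 0.28, Scd1 1.28 ± 0.12), and Cers2 (2.42 ± 0.13), which prefers very long acyl chains. Depleted were Cers6 (-4.41 ± 0.32), Elovl4 (-2.69 ± 0.21), Fads3 (-2.69 ± 0.47), Ugcg, the glucosylceramide synthase (-2.14 ± 0.16), Cers4 (-1.95 ± 0.15), Cers1 (-1.67 ± 0.28) and Degs2 (-3.30 ± 1.33, q = 0.0426). The call of Degs2 was lost without any single naive total RNA library or any single naive OL library (-3.78 to -2.58), and that of Sgms2 without any single naive total RNA library or naive OL library 1 (0.48 to 0.54). Both were also lost when the tissue pool was fitted as a block (-3.60, q = 0.085 and 0.50, q = 0.0671). Acly, Thrsp, Fads1, Fads2 and Gpam were in neither class. Without naive OL library 3 the depleted members numbered 10 and the enriched ones 24, against 27.8% and 26.1% of all genes.

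After contusion the enriched members numbered 21, 23 and 21 on dpi 2, 10 and 42, against 20.5%, 21.2% and 21.1% of all genes, and the depleted ones 8, 8 and 9, against 27.2%, 27.3% and 27% of all genes. With library sizes alone, which moved the median of all genes by -0.58 to -0.50 log2, 19 members were enriched and 12 depleted on dpi 10. Among all genes 8.95% were then enriched and 43.5% depleted. The median enrichment of the members was 1.13, 1.09 and 1.01 log2, and that of all genes -0.19, -0.22 and -0.18. Acly, which makes cytosolic acetyl-CoA from citrate, had -0.10 ± 0.13 in naive tissue, where it was not called, and -1.03 ± 0.13 on dpi 42 (q = 1.03e-06). Gpam was called depleted on dpi 42 (-1.08 ± 0.33) and had -0.36 ± 0.33 in naive tissue, where OL library 3 held 99.1 CPM against 27.9 and 31.2 CPM in the others, and its differential enrichment was not called (-0.72 ± 0.47, q = 0.412). Sgms1, which makes sphingomyelin in the Golgi, was enriched in naive tissue (1.02 ± 0.14) and not called on dpi 2 (-0.09 ± 0.14) or dpi 42 (0.18 ± 0.14). On dpi 42 Degs2 had 0 counts in all 3 OL libraries and 152 in total RNA, at least 39.6-fold lower against a floor of 3 counts over the OL group.

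**Figure D1:**
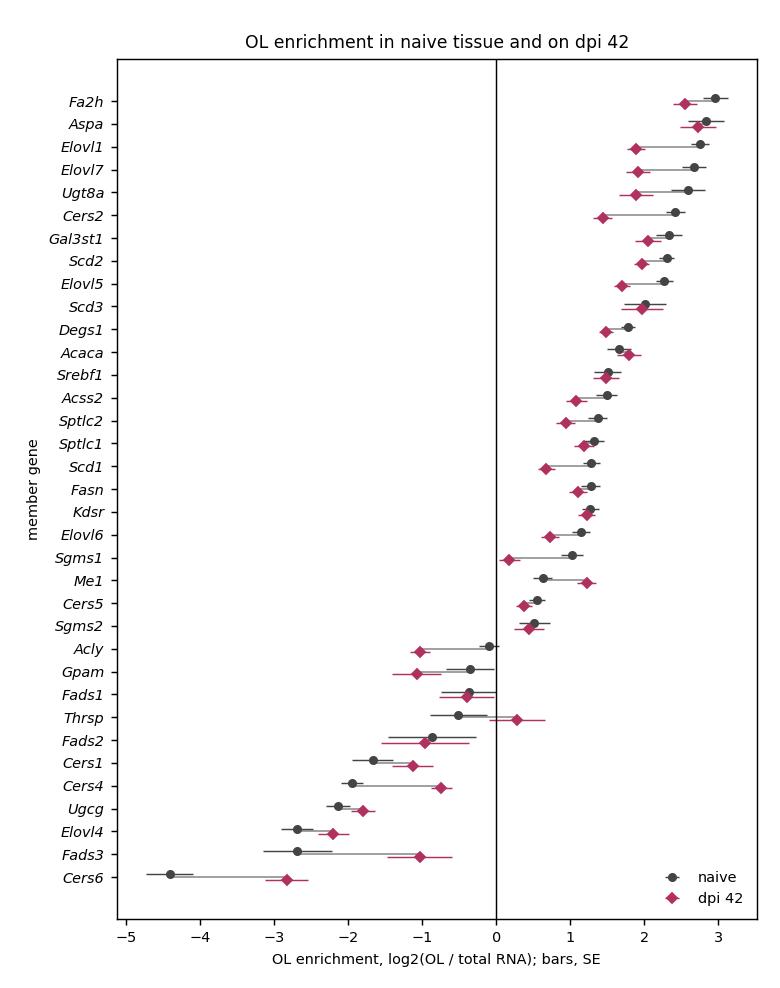
OL enrichment of 35 members (Degs2 left out for its near-zero OL counts), log2 of OL over total RNA, in naive tissue (circles) and on dpi 42 (diamonds), with bars for the SE of the fit (n = 3 per group). Fa2h stood at the top in naive tissue (2.96) and Cers6 at the bottom (-4.41), and Cers2 moved from 2.42 to 1.43.

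The OL change asks which members differed between injured and naive OL translatomes. More members fell than rose. On dpi 2 there were 15 falls and 4 rises, on dpi 10 9 falls and 4 rises, and on dpi 42 15 falls and 3 rises. Over all tested genes 16.4%, 5.55% and 13% fell and 15.9%, 8.55% and 13.7% rose. The share of members that fell (15, 9 and 15 of 36) lay above that of all genes at each time, while the share that rose lay above it on dpi 10 alone. The median change of the members was -0.23, -0.29 and -0.40 log2, against 0.00 over all genes. Acly, Acss2, Fasn, Scd2, Elovl5, Gpam and Sgms1 fell at all 3 times, Cers4 and Cers6 rose at all 3 times, 11 members were called at no time, and none was called in opposite directions at different times. The counts depended on the scaling. Library sizes alone moved the median change of all genes by 0.11 to 0.17 log2. The rises and falls then came to 6 and 6 at dpi 2, 4 and 6 at dpi 10, and 4 and 12 at dpi 42. In that setting 19.9%, 10% and 17% of all genes rose and 11.3%, 3.02% and 8.87% fell. The share of members that fell (6, 6 and 12 of 36) still lay above that of all genes at each time. Under an offset for length and GC content 7 rose and 12 fell at dpi 2, against 14.4% and 13.2% of all genes. Without the 5 OL libraries high in astrocyte markers, a setting chosen after seeing the data that leaves 1 OL library on dpi 42, 16, 13 and 14 fell and 3, 5 and 2 rose. The count of rises on dpi 10 was 2 without dpi 10 OL library 1 (7.8% of all genes), and on dpi 42 it was 5 without naive OL library 3 (14.7%). Of the 19, 13 and 18 calls, 7, 6 and 12 held under every alternative run. On dpi 2 these were Me1, Aspa, Cers2, Cers4, Degs1, Ugt8a and Sgms1, and on dpi 10 Acly, Scd1, Scd2, Elovl5, Cers4 and Cers6. On dpi 42 they were Acly, Acss2, Fasn, Scd1, Scd2, Elovl5, Elovl6, Elovl7, Cers2, Cers4, Ugt8a and Sgms1. Cers4 alone so held at all 3 times. With library sizes alone the dpi 2 calls of Acly, Acss2, Fasn, Scd2 and Elovl5 were lost (-0.45 to -0.40), as were those of Elovl7 (-0.39), Fa2h, Fads2 and Srebf1. The length and GC offset lost Scd2 on dpi 2 (-0.47, q = 0.000577) and Sgms1 on dpi 10 (-0.45, q = 0.023).

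**Figure D2:**
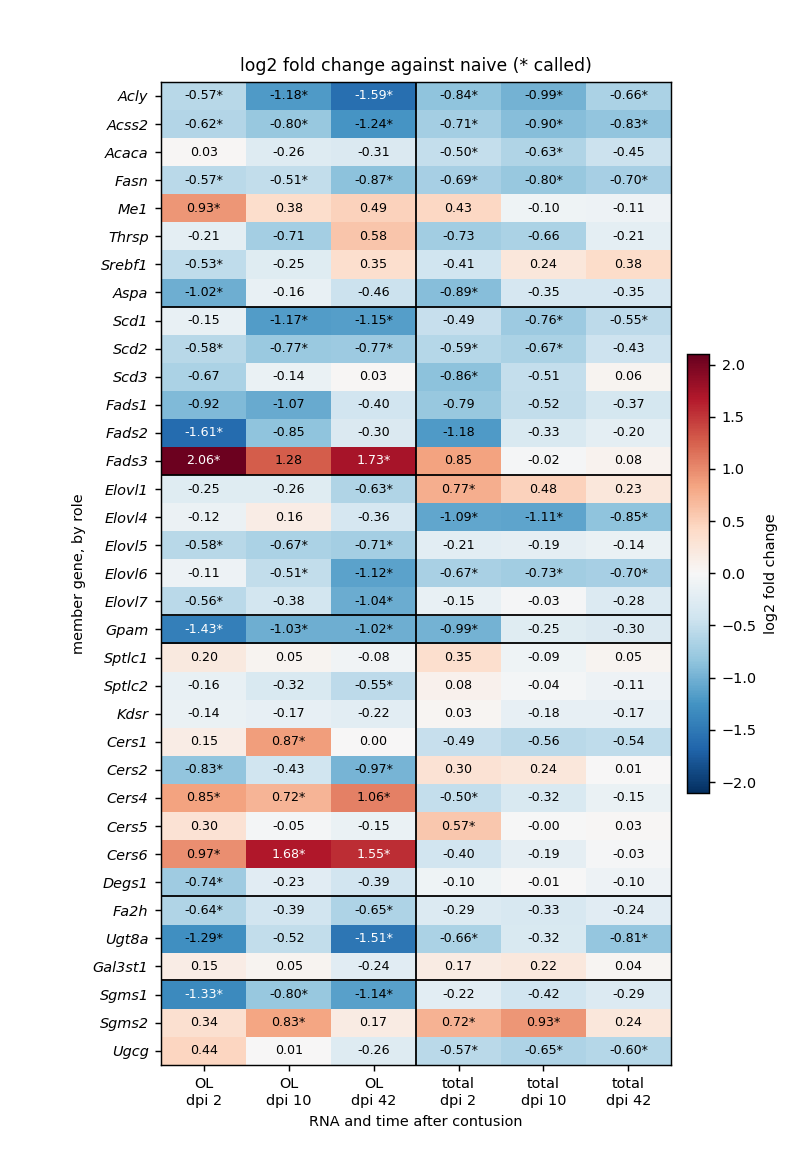
Log2 fold change against naive of 35 members (rows, by role, separated by lines; Degs2 left out) in OL and in total RNA on dpi 2, 10 and 42 (columns); asterisks mark q under 0.05 with a change past 0.5. Acly in OLs went from -0.57 to -1.59, and Cers6 stood at 0.97 to 1.68 in OLs while none of its changes in total RNA was called.

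Among the 8 genes of cytosolic fatty acid synthesis, 5 fell and 1 rose on dpi 2, and Acly, Acss2 and Fasn fell at all times. Acly read 456, 467 and 361 CPM in the naive libraries and 294, 306 and 263 CPM at dpi 2. At dpi 10 Acly held 199, 189 and 178 CPM and at dpi 42 118, 155 and 153 CPM. All 9 injured OL libraries lay below the naive ones, and those of dpi 42 below those of dpi 10. The OL change was -0.57 ± 0.13 (q = 0.00141) on dpi 2, -1.18 ± 0.13 (q = 2.12e-06) on dpi 10 and -1.59 ± 0.13 (q = 4.42e-08) on dpi 42. The step from dpi 2 to dpi 10 was -0.61 ± 0.13 (q = 0.00179). In total RNA Acly fell as well, at -0.84 ± 0.13, -0.99 ± 0.13 and -0.66 ± 0.13, and on dpi 42 the OL fall was the larger one (differential OL enrichment -0.93 ± 0.19, q = 0.00349). Acss2, which activates acetate, read 224, 245 and 202 CPM in the naive libraries and 138, 142 and 156 CPM at dpi 2. At dpi 10 Acss2 held 139.8, 130.1 and 116 CPM and at dpi 42 80.6, 97.3 and 106 CPM. None of the injured libraries reached the naive range, and the changes were -0.62 ± 0.14 (q = 0.00112), -0.80 ± 0.14 (q = 0.000337) and -1.24 ± 0.14 (q = 1.61e-06) on dpi 2, 10 and 42. Fasn, the fatty acid synthase, read 822, 921 and 832 CPM in the naive libraries and 589, 508 and 633 CPM at dpi 2. At dpi 10 Fasn held 675, 601 and 531 CPM and at dpi 42 403, 467 and 542 CPM. Again no injured library overlapped with naive, with -0.57 ± 0.12 (q = 0.000725) on dpi 2, -0.51 ± 0.12 (q = 0.00516) on dpi 10 and -0.87 ± 0.12 (q = 1.65e-05) on dpi 42. The dpi 10 call of Fasn was lost without naive OL library 2 (-0.46, q = 0.0346) or dpi 10 OL library 3 (-0.44, q = 0.0447), and its dpi 2 call without both libraries of the pool with Y-linked counts (-0.49, q = 0.00274). Under an offset for length and GC content both calls were lost (-0.15, q = 0.287 and -0.31, q = 0.0517), as was Acss2 on dpi 2 (-0.15, q = 0.429) and dpi 10 (-0.49, q = 0.0178).

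Acaca, the carboxylase that makes malonyl-CoA between Acly and Fasn, was called at no time in OLs. Its levels were 198 to 250.2 CPM in naive tissue and 165 to 302, 171 to 214 and 172 to 193 CPM on dpi 2, 10 and 42. Its OL changes were 0.03 ± 0.15 (q = 0.954), -0.26 ± 0.15 (q = 0.272) and -0.31 ± 0.15 (q = 0.14). Me1, malic enzyme and a source of NADPH for lipid synthesis, rose, reading 141, 127 and 132 CPM in the naive libraries and 279.6, 293 and 190.2 CPM at dpi 2. At dpi 10 Me1 held 188, 181 and 149 CPM and at dpi 42 198, 192 and 170.4 CPM. Every injured library lay above the naive ones. The change passed the fold threshold on dpi 2 (0.93 ± 0.13, q = 5.46e-06) but not on dpi 10 (0.38 ± 0.13, q = 0.0424) or dpi 42 (0.49 ± 0.13, q = 0.00491). Aspa read 429, 447 and 261 CPM in the naive libraries and 227, 157 and 176 CPM at dpi 2. At dpi 10 Aspa held 376, 329 and 310.4 CPM and at dpi 42 276, 239 and 314 CPM. The dpi 2 libraries lay below all others, at -1.02 ± 0.23 (q = 0.00131), with a return by 0.86 ± 0.23 (q = 0.00948) from dpi 2 to dpi 10. The naive library with the lowest Aspa was number 3, which was high in astrocyte markers.

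Srebf1, which codes for SREBP1, read 225, 263 and 355 CPM in the naive libraries and 192, 165 and 227 CPM at dpi 2. At dpi 10 Srebf1 held 239, 262 and 206 CPM and at dpi 42 448, 327 and 302 CPM. Its fall on dpi 2 was -0.53 ± 0.18 (q = 0.0215), the call being lost without naive OL library 3 (-0.39, q = 0.0774) or dpi 2 OL library 2 (-0.48, q = 0.0548). On dpi 42 the change was 0.35 ± 0.18 (q = 0.135), and the step from dpi 10 to dpi 42 was 0.61 ± 0.18 (q = 0.0405). That step lost its call without any single dpi 10 OL library or dpi 42 OL library 1 or 2 (0.37 to 0.63). Thrsp, a small protein that promotes fatty acid synthesis and is shown by library after its values were seen, read 13.5, 12.2 and 32.97 CPM in the naive libraries and 15.4, 9.64 and 25.9 CPM at dpi 2. At dpi 10 Thrsp held 9.63, 15.1 and 11.2 CPM and at dpi 42 42.9, 29.3 and 15.5 CPM. It was called from dpi 10 to dpi 42 (1.29 ± 0.39, q = 0.0471), and this call was lost without any single dpi 10 OL library or dpi 42 OL library 1 or 2 (0.86 to 1.42). Within each group, both Srebf1 and Thrsp were highest in the libraries high in astrocyte markers. These were naive library 3, dpi 2 library 3, dpi 10 library 2, and dpi 42 libraries 1 and 2. Leaving out all 5 leaves 1 OL library on dpi 42, and their part in the changes of both genes was not tested.

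**Figure D3:**
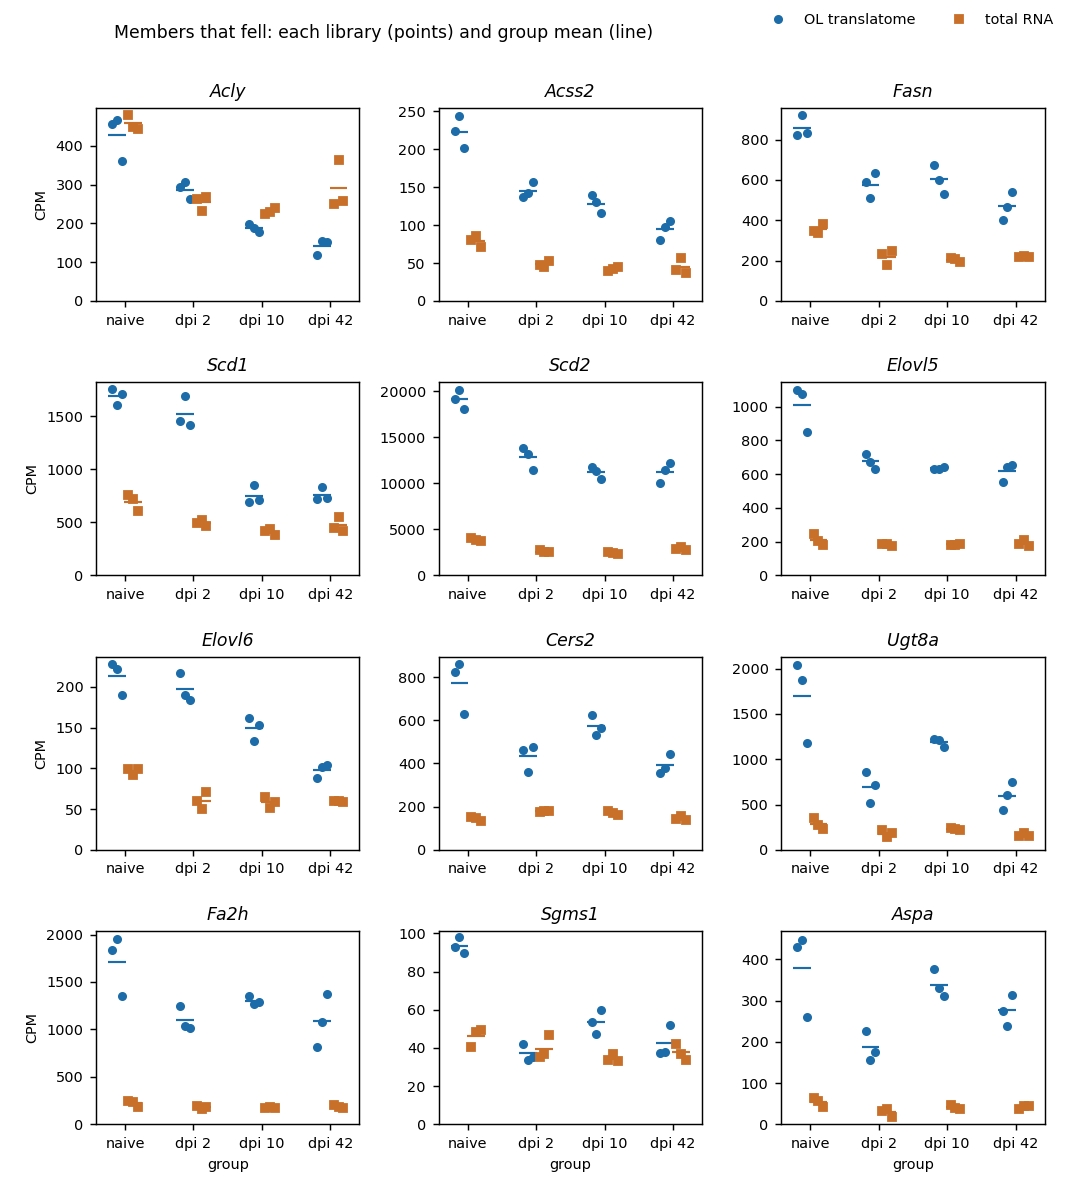
CPM (linear axes from 0) of 12 members that fell, in each OL library (circles) and total RNA library (squares) of the 4 groups, with lines at the group means (n = 3). Scd1 in OLs left the naive range on dpi 10 (689, 848 and 712 CPM against 1607 to 1752), and Ugt8a was low on dpi 2 and dpi 42 with dpi 10 between.

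Of the 6 desaturases, which introduce double bonds, Scd2 fell at all 3 times and Scd1 later. Scd2 read 19164, 20103 and 18060.0 CPM in the naive libraries and 13821, 13145 and 11455 CPM at dpi 2. At dpi 10 Scd2 held 11792, 11313 and 10433 CPM and at dpi 42 10031, 11414 and 12151 CPM. The groups did not overlap with naive, and the change was -0.58 ± 0.10 (q = 7.16e-05), -0.77 ± 0.10 (q = 9.35e-06) and -0.77 ± 0.10 (q = 5.96e-06) on dpi 2, 10 and 42. In total RNA Scd2 read 3680.0 to 4099 CPM in naive tissue, 2486 to 2732 at dpi 2, 2308 to 2568 at dpi 10 and 2703 to 3075 at dpi 42. Its total changes were -0.59 ± 0.10, -0.67 ± 0.10 and -0.43 ± 0.10, the last short of the fold threshold, and differential enrichment was not called. Scd1 read 1752, 1607 and 1703 CPM in the naive libraries and 1458, 1686 and 1416 CPM at dpi 2. At dpi 10 Scd1 held 689, 848 and 712 CPM and at dpi 42 721, 829 and 724 CPM. On dpi 2 its range overlapped with naive (-0.15 ± 0.11, q = 0.324), whereas dpi 10 and dpi 42 lay wholly below both. The changes then were -1.17 ± 0.12 (q = 3.99e-07) and -1.15 ± 0.12 (q = 4.01e-07), with a step of -1.02 ± 0.12 (q = 1.77e-06) from dpi 2 to dpi 10. Scd3 was low, 25.9 to 35.2 CPM in naive OLs and 17.7 to 22.1, 26.4 to 30.5 and 24.6 to 42.5 CPM after injury, and none of its OL changes was called (-0.67, -0.14 and 0.03).

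The front-end desaturases of polyunsaturated fatty acids were uneven among libraries of a group. Fads1, shown by library after its values were seen, read 146, 161 and 500.0 CPM in the naive libraries and 111, 105 and 211 CPM at dpi 2. At dpi 10 Fads1 held 103, 175 and 108 CPM and at dpi 42 221, 278 and 113 CPM. It was highest in each group in a library high in astrocyte markers, and its OL changes of -0.92 ± 0.37 (q = 0.055), -1.07 ± 0.37 (q = 0.0503) and -0.40 ± 0.37 (q = 0.448) were not called. Fads2 read 22.5, 28.2 and 207 CPM in the naive libraries and 20.2, 20.2 and 44.1 CPM at dpi 2. At dpi 10 Fads2 held 34.4, 80.97 and 27.5 CPM and at dpi 42 82.7, 100.0 and 26.9 CPM. Naive library 3 stood far above the other naive libraries. The call on dpi 2 (-1.61 ± 0.61, q = 0.0418) was lost and turned positive without naive OL library 3 (0.09, q = 0.966). It was also lost without dpi 2 OL library 1 (-1.49, q = 0.105) or 2 (-1.48, q = 0.109). Fads3, which belongs to the same cluster, read 2.86, 1.52 and 5.81 CPM in the naive libraries and 6.35, 8.95 and 27.3 CPM at dpi 2. At dpi 10 Fads3 held 7.73, 10.1 and 7.04 CPM and at dpi 42 14.8, 13.7 and 5.44 CPM. It rose by 2.06 ± 0.46 (q = 0.00116) on dpi 2 and 1.73 ± 0.46 (q = 0.00567) on dpi 42 and had 1.28 ± 0.45 (q = 0.0558) on dpi 10. The injured libraries overlapped with naive library 3 on dpi 42, and without the 5 libraries high in astrocyte markers the changes were 1.74, q = 7.95e-06 on dpi 2 and 1.29, q = 0.00263 on dpi 42. Both calls were lost when only the compared groups were fitted (2.104, q = 0.0645 and 1.76, q = 0.0725). In naive total RNA Fads3 held 21.6 to 22.3 CPM, and its OL enrichment was still negative, -1.04 ± 0.43 on dpi 42. That call was lost without any single dpi 42 total RNA library or dpi 42 OL library 2 or 3 (-1.20 to -0.72).

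**Figure D4:**
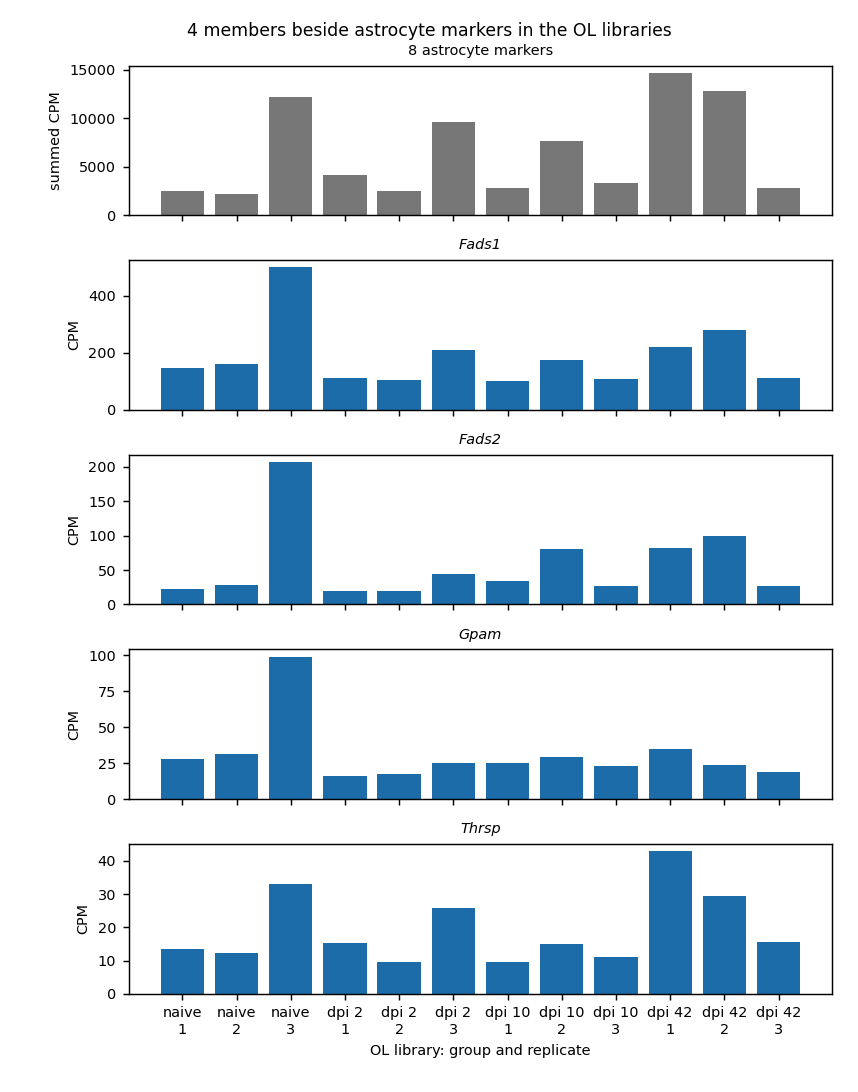
Summed CPM of 8 astrocyte markers (top) and CPM of Fads1, Fads2, Gpam and Thrsp in the 12 OL libraries (bars from 0), ordered by group and replicate number. Naive library 3 held 12230 CPM of the markers and the highest value of Fads1 (500.0 CPM), Fads2 (207 CPM) and Gpam (99.1 CPM).

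The elongases add carbon units to fatty acids, and 4 of 5 had fallen in OLs by dpi 42. Elovl5, which works on polyunsaturated chains, read 1099, 1074 and 848 CPM in the naive libraries and 721, 673 and 632 CPM at dpi 2. At dpi 10 Elovl5 held 631, 631 and 640.3 CPM and at dpi 42 554, 641 and 652 CPM. Its injured ranges lay below naive at all times, at -0.58 ± 0.11 (q = 0.000221), -0.67 ± 0.11 (q = 0.000175) and -0.71 ± 0.11 (q = 4.04e-05). Total RNA values were -0.21 ± 0.11, -0.19 ± 0.11 and -0.14 ± 0.11 with no call. Elovl6, which turns palmitate into stearate, read 228, 221 and 189 CPM in the naive libraries and 217, 190.0 and 184 CPM at dpi 2. At dpi 10 Elovl6 held 161, 134 and 154 CPM and at dpi 42 88.3, 102 and 104 CPM. The dpi 2 libraries overlapped with naive, dpi 10 lay below both and dpi 42 below dpi 10. The changes were -0.11 ± 0.12 (q = 0.493), -0.51 ± 0.12 (q = 0.00397) and -1.12 ± 0.12 (q = 7.64e-07), with a step of -0.61 ± 0.12 (q = 0.00552) from dpi 10 to dpi 42. The dpi 10 call was lost without naive OL library 1 (-0.46, q = 0.0305), naive OL library 2 (-0.49, q = 0.0234) or dpi 10 OL library 2 (-0.44, q = 0.0375).

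Elovl7, an elongase of saturated very long chains, read 428, 393 and 287 CPM in the naive libraries and 315, 239.8 and 197 CPM at dpi 2. At dpi 10 Elovl7 held 303, 274 and 272 CPM and at dpi 42 165, 169.6 and 206 CPM. On dpi 42 it lay below naive and dpi 10 (-1.04 ± 0.16, q = 4.39e-05 against naive, and -0.65 ± 0.16, q = 0.0175 against dpi 10). On dpi 2 it was -0.56 ± 0.16 (q = 0.00764), a call that was lost without naive OL library 1 (-0.50, q = 0.0326) or dpi 2 OL library 3 (-0.47, q = 0.0298). The step to dpi 42 lost its call without dpi 10 OL library 1 (-0.66, q = 0.0578), dpi 42 OL library 1 (-0.63, q = 0.0693) or dpi 42 OL library 2 (-0.66, q = 0.0622). Elovl1, which makes the very long chains that Cers2 uses, read 353, 398 and 302 CPM in the naive libraries and 317, 275 and 291 CPM at dpi 2. At dpi 10 Elovl1 held 316, 286 and 277 CPM and at dpi 42 190.5, 236 and 251 CPM. It fell on dpi 42 (-0.63 ± 0.12, q = 0.000248), short of the fold threshold with library sizes alone (-0.49, q = 0.00078), and had -0.25 ± 0.12 on dpi 2 and -0.26 ± 0.12 on dpi 10 in OLs. In total RNA it read 49.1 to 57.3 CPM in naive tissue, 81.2 to 94.1 at dpi 2, 67.4 to 76.1 at dpi 10 and 54.5 to 64.9 at dpi 42, and rose by 0.77 ± 0.12 (q = 2.22e-05) on dpi 2. Elovl4, an elongase of the longest chains, moved in total RNA instead. In OLs it read 16.7, 14.003 and 10.9 CPM in the naive libraries and 15.04, 10.6 and 12.6 CPM at dpi 2. At dpi 10 Elovl4 held 17.4, 16.5 and 12.6 CPM and at dpi 42 8.91, 8.81 and 14.7 CPM. Every injured OL group overlapped with naive, and no OL change was called. In total RNA it read 88.1 to 90.2 CPM in naive tissue, 36.7 to 46.7 at dpi 2, 37.8 to 43.99 at dpi 10 and 40.4 to 62.5 at dpi 42, and fell at -1.09 ± 0.20 (q = 0.000195), -1.11 ± 0.20 (q = 0.000218) and -0.85 ± 0.20 (q = 0.00399). Of the 8 neuron markers 7, 7 and 4 fell in the same total RNA libraries, and their part in the change was not tested. Gpam, which starts glycerolipid synthesis by acylating glycerol-3-phosphate, read 27.9, 31.2 and 99.1 CPM in the naive libraries and 16.4, 17.3 and 24.98 CPM at dpi 2. At dpi 10 Gpam held 25.05, 29.2 and 23.2 CPM and at dpi 42 35.2, 23.8 and 18.98 CPM. Its changes were -1.43 ± 0.34 (q = 0.00182), -1.03 ± 0.33 (q = 0.035) and -1.02 ± 0.33 (q = 0.022), all called. The dpi 10 call was lost without naive OL library 3 or any single dpi 10 OL library (-1.13 to -0.20), and the dpi 42 call without naive OL library 3 or dpi 42 OL library 2 or 3 (-1.02 to -0.25). Without naive OL library 3, the one high in astrocyte markers, the values were -0.66, q = 0.0162 on dpi 2, -0.20, q = 0.586 on dpi 10 and -0.25, q = 0.399 on dpi 42.

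Ceramide synthesis showed opposite movements within one family. Cers2, the ceramide synthase of very long chains and by far the most abundant of the 5 in OLs, read 825, 859 and 628 CPM in the naive libraries and 465, 362 and 478 CPM at dpi 2. At dpi 10 Cers2 held 627, 531 and 564 CPM and at dpi 42 354, 380.1 and 445 CPM. All 9 injured libraries lay below naive, and those of dpi 10 above those of dpi 2 and dpi 42. The change was -0.83 ± 0.12 (q = 1.35e-05), -0.43 ± 0.12 (q = 0.0165) and -0.97 ± 0.12 (q = 4.97e-06) on dpi 2, 10 and 42, with the dpi 10 value short of the fold threshold. In total RNA Cers2 read 133 to 151 CPM in naive tissue, 174 to 182 at dpi 2, 162 to 179 at dpi 10 and 138 to 157 at dpi 42 and the changes were not called (0.30, 0.24 and 0.01). Cers4 read 9.41, 8.76 and 8.45 CPM in the naive libraries and 15.04, 16.4 and 16.5 CPM at dpi 2. At dpi 10 Cers4 held 14.1, 13.9 and 15.9 CPM and at dpi 42 15.7, 22.1 and 17.7 CPM. Each injured library lay above all naive ones, at 0.85 ± 0.15 (q = 8.09e-05), 0.72 ± 0.15 (q = 0.00135) and 1.06 ± 0.15 (q = 1.28e-05). Cers6, which prefers shorter chains, read 1.47, 1.06 and 1.07 CPM in the naive libraries and 2.04, 2.47 and 2.56 CPM at dpi 2. At dpi 10 Cers6 held 2.68, 2.74 and 6.09 CPM and at dpi 42 4.96, 3.1 and 2.5 CPM. Its injured libraries lay above naive too, at 0.97 ± 0.31 (q = 0.0153), 1.68 ± 0.30 (q = 0.000496) and 1.55 ± 0.30 (q = 0.000461). Both remained OL depleted on dpi 42, Cers4 at -0.74 ± 0.14 and Cers6 at -2.83 ± 0.29, and Cers6 stayed at a few CPM. Without the 5 libraries high in astrocyte markers the calls of Cers6 on dpi 2 (0.77, q = 0.0826) and dpi 42 (0.97, q = 0.093) were lost, and the call on dpi 10 was kept under every alternative. The dpi 2 call was also lost with only the compared groups fitted (1.04, q = 0.157), and without naive OL library 2 or 3 or dpi 2 OL library 2 or 3 (0.83 to 0.88).

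Cers1, whose exons overlap with Gdf1, read 10.4, 13.2 and 22.6 CPM in the naive libraries and 20.6, 10.2 and 20.5 CPM at dpi 2. At dpi 10 Cers1 held 32.3, 28.04 and 24.1 CPM and at dpi 42 13.5, 19.1 and 13.7 CPM. It rose on dpi 10 (0.87 ± 0.28, q = 0.0314), a call that was lost without naive OL library 1 or 2 or dpi 10 OL library 1 or 2 (0.65 to 0.87). Cers5 held 44.5 to 46.5 CPM in naive OLs and 54.8 to 56.6 CPM on dpi 2 (0.30 ± 0.11, q = 0.0342, under the fold threshold), and rose in total RNA on dpi 2 (0.57 ± 0.11, q = 0.000303). Upstream of ceramide, Sptlc1 and Sptlc2, subunits of serine palmitoyltransferase, and Kdsr, which reduces its product, stood at 69.2 to 82.9, 111 to 159.7 and 73.3 to 89.1 CPM in naive OLs. Sptlc1 and Kdsr were called at no time, with changes between -0.22 and 0.20. Sptlc2 read 148, 159.7 and 111 CPM in the naive libraries and 138, 127 and 109 CPM at dpi 2. At dpi 10 Sptlc2 held 122, 112 and 101 CPM and at dpi 42 86.3, 91.1 and 109 CPM. It fell on dpi 42 by 0.55 ± 0.13 (q = 0.00233), a call that was lost without naive OL library 2 (-0.49, q = 0.014), and under the length and GC offset (-0.14, q = 0.422), library sizes alone, only the compared groups, or without the 2 libraries of conflicting labels (-0.51 to -0.40). Degs1, which adds the double bond that makes ceramide, read 541, 518 and 453 CPM in the naive libraries and 302, 307 and 295 CPM at dpi 2. At dpi 10 Degs1 held 464, 425 and 398 CPM and at dpi 42 344, 397 and 409 CPM. It fell on dpi 2 (-0.74 ± 0.09, q = 2.43e-06) with all 3 libraries below every other OL library, and rose by 0.51 ± 0.09 (q = 0.000416) between dpi 2 and dpi 10. On dpi 42 the change was -0.39 ± 0.09 (q = 0.00262). Degs2, which makes phytoceramide, had 17, 4 and 0 counts in the OL libraries of dpi 2, 10 and 42.

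**Figure D5:**
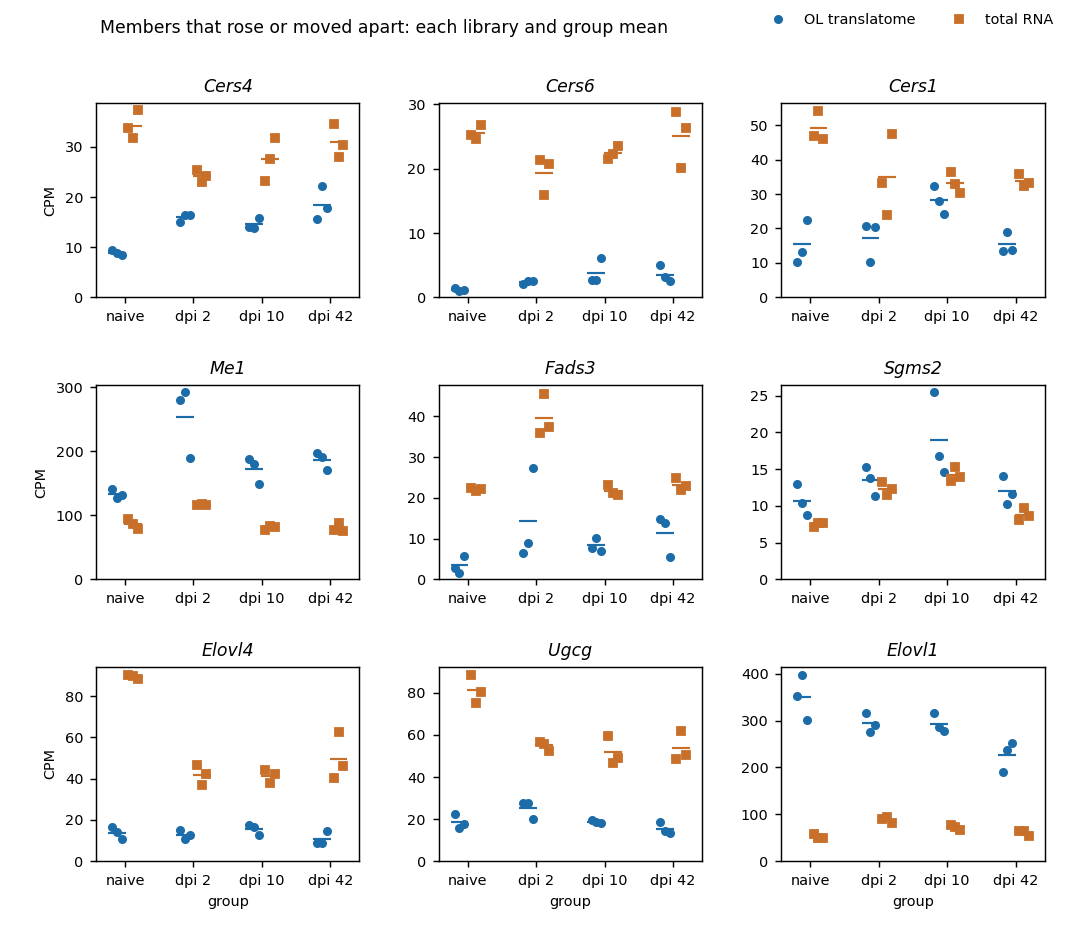
CPM (linear axes from 0) of 9 members that rose in OLs or moved apart between OL (circles) and total RNA (squares), by library, with lines at group means (n = 3). Cers4 in OLs rose from 8.45 to 9.41 CPM in naive tissue to 15.7 to 22.1 CPM on dpi 42, and Elovl4 and Ugcg fell in total RNA with no call in OLs.

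Of the 3 enzymes of the myelin galactolipids, Fa2h and Ugt8a fell on dpi 2 and dpi 42 and neither was called on dpi 10. Ugt8a read 2039, 1880.0 and 1183 CPM in the naive libraries and 855, 519.8 and 714 CPM at dpi 2. At dpi 10 Ugt8a held 1228, 1209 and 1133 CPM and at dpi 42 437, 603 and 750.2 CPM. The dpi 2 and dpi 42 libraries lay below both the naive and the dpi 10 ones, and dpi 10 overlapped with naive library 3. Its changes were -1.29 ± 0.22 (q = 7.78e-05), -0.52 ± 0.22 (q = 0.111) and -1.51 ± 0.22 (q = 2.52e-05). The steps were 0.77 ± 0.22 (q = 0.0131) from dpi 2 to dpi 10 and -1.0 ± 0.22 (q = 0.0102) from dpi 10 to dpi 42. The first step lost its call without dpi 2 OL library 2 (0.65, q = 0.0576), and the late one without dpi 42 OL library 1 (-0.85, q = 0.0562). Fa2h read 1833, 1948 and 1347 CPM in the naive libraries and 1244, 1040.1 and 1009.9 CPM at dpi 2. At dpi 10 Fa2h held 1350.2, 1267 and 1285 CPM and at dpi 42 816, 1080.0 and 1370.3 CPM. Naive library 3 overlapped with dpi 10 and dpi 42, and the changes were -0.64 ± 0.15 (q = 0.00227), -0.39 ± 0.15 (q = 0.0832) and -0.65 ± 0.15 (q = 0.00253). The dpi 42 call was lost without the 2 libraries of conflicting labels (-0.48, q = 0.0258), without the 5 libraries high in astrocyte markers (-0.48, q = 0.023) and with only the compared groups fitted (-0.61, q = 0.0773). The dpi 2 call was lost with library sizes alone (-0.47, q = 0.011). Gal3st1, the last step to sulfatide, was called at no time. Its levels were 194 to 286 CPM in naive OLs and 218 to 313, 250.1 to 267 and 153 to 264 CPM on dpi 2, 10 and 42. The changes were 0.15 ± 0.17 (q = 0.516), 0.05 ± 0.17 (q = 0.924) and -0.24 ± 0.17 (q = 0.293). Naive library 3 was the lowest of the naive OL libraries in Fa2h and Ugt8a, as in Cers2, Elovl7 and Aspa. The summed OL markers had a median of 172680 CPM in naive OL libraries and of 123530, 157250 and 128020 CPM in those of dpi 2, 10 and 42, and their part in these changes was not tested.

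Sgms1 had one of the deepest falls of the module, reading 92.8, 98.02 and 89.8 CPM in the naive libraries and 42.03, 33.8 and 35.4 CPM at dpi 2. At dpi 10 Sgms1 held 53.7, 47.5 and 59.6 CPM and at dpi 42 37.5, 37.9 and 52.2 CPM. No injured library overlapped with naive, and dpi 2 lay below dpi 10. The change was -1.33 ± 0.15 (q = 3.24e-07), -0.80 ± 0.14 (q = 0.000436) and -1.14 ± 0.14 (q = 5.8e-06). A partial return of 0.53 ± 0.14 (q = 0.00981) between dpi 2 and dpi 10 lost its call without both libraries of dpi 2 pool 2 (0.47, q = 0.0506). In total RNA none of its changes was called (-0.22, -0.42 and -0.29). Sgms2, the sphingomyelin synthase of the plasma membrane, read 12.98, 10.3 and 8.72 CPM in the naive libraries and 15.2, 13.9 and 11.4 CPM at dpi 2. At dpi 10 Sgms2 held 25.6, 16.8 and 14.5 CPM and at dpi 42 14.1, 10.2 and 11.7 CPM. It rose on dpi 10 (0.83 ± 0.21, q = 0.00703), a call that was lost without dpi 10 OL library 1 (0.55, q = 0.0695). It rose in total RNA on dpi 2 (0.72 ± 0.21, q = 0.00791) and dpi 10 (0.93 ± 0.21, q = 0.00141). Ugcg read 22.3, 15.8 and 17.6 CPM in the naive libraries and 27.8, 27.9 and 19.97 CPM at dpi 2. At dpi 10 Ugcg held 19.4, 18.4 and 18.2 CPM and at dpi 42 18.6, 14.3 and 13.3 CPM. Its OL change was 0.44 ± 0.16 (q = 0.03) on dpi 2, under the fold threshold. In total RNA it fell at all 3 times, at -0.57 ± 0.15 (q = 0.00585), -0.65 ± 0.15 (q = 0.00234) and -0.60 ± 0.15 (q = 0.00703).

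Total RNA asks what the whole tissue did. There 13, 9 and 8 members fell on dpi 2, 10 and 42, against 17%, 13.3% and 7.76% of all genes, and 3, 1 and 0 rose, against 14.3%, 12.4% and 9.15%. On dpi 42, where edgeR called 0 members up, 1 had a rise at an unadjusted p under 0.05, and the DESeq2 Wald test called 0. The medians were -0.45, -0.32 and -0.21 log2, against -0.10, -0.10 and -0.08 over all genes. Falls in OL and total RNA were shared by 7 members on dpi 2 (Acly, Acss2, Fasn, Aspa, Scd2, Gpam and Ugt8a), 6 on dpi 10 (Acly, Acss2, Fasn, Scd1, Scd2 and Elovl6) and 6 on dpi 42 (Acly, Acss2, Fasn, Scd1, Elovl6 and Ugt8a). Library sizes alone moved the median of all genes by 0.22 and 0.18 log2 at dpi 2 and 10. In that setting 6 members rose and 3 fell at dpi 2. The balance of all genes turned as well, with 19% up and 9.77% down. At dpi 10, 2 members rose and 6 fell, against 15.4% and 7.04% of all genes. With a total RNA library as TMM reference, chosen after seeing the data, 4 rose and 7 fell at dpi 2, against 17% and 12.2% of all genes. Of the 16, 10 and 8 calls in total RNA, 4, 7 and 3 held under every alternative run. They were Acly, Aspa, Elovl4 and Sgms2 on dpi 2, Acly, Acss2, Fasn, Scd1, Elovl4, Elovl6 and Sgms2 on dpi 10, and Acly, Acss2 and Elovl4 on dpi 42. OL RNA is part of total RNA, so these are not independent. Acaca fell in total RNA on dpi 2 (-0.50 ± 0.16, q = 0.0145) and dpi 10 (-0.63 ± 0.16, q = 0.0036). The first was lost without naive total RNA library 1 or 3 or dpi 2 total RNA library 2 or 3 (-0.49 to -0.44), and turned positive under the offset for length and GC content (0.14, q = 0.536). Cers4 was called in opposite directions, up in OLs and down in total RNA on dpi 2 (-0.50 ± 0.14, q = 0.00757), but the latter moved to 0.00, q = 1, under that offset. It was also lost without naive total RNA library 3 or dpi 2 total RNA library 2 (-0.47 to -0.44). In total RNA the call of Gpam on dpi 2 was lost without naive total RNA library 3 or dpi 2 total RNA library 2 or 3 (-0.91 to -0.90), and that of Scd3 on dpi 2 without naive total RNA library 1 or dpi 2 total RNA library 1 (-0.81 to -0.50). The call of Scd1 on dpi 42 was lost without naive total RNA library 1 or dpi 42 total RNA library 3 (-0.48 to -0.47), and that of Ugt8a without naive total RNA library 1 or dpi 2 total RNA library 2 (-0.51 to -0.49) on dpi 2 and naive total RNA library 1 (-0.64) on dpi 42. The single rise on dpi 10, Sgms2, was joined by another without naive total RNA library 1 or dpi 10 total RNA library 3 (2 in all, against 10.7% and 11.2% of all genes).

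Differential OL enrichment tests whether the OL change differed from the total change. It was called up for 5 members and down for 4 on dpi 2 (7.57% and 5.68% of all genes), 4 and 2 on dpi 10 (4.27% and 2.94%), and 3 and 7 on dpi 42 (4.12% and 3.34%). With a total RNA library as TMM reference, which moved the median of all genes by -0.25 to -0.24 log2, 2, 3 and 2 members were up and 6, 4 and 12 down at dpi 2, 10 and 42. In that setting 3.67%, 1.36% and 1.7% of all genes were up and 10.7%, 6.02% and 8.07% down. The medians of the members were -0.07, -0.08 and -0.17 log2, against 0.06, 0.08 and 0.04 over all genes. Elovl1 and Cers2, the pair that makes and attaches very long chains, were down at all 3 times. Elovl1 had -1.02 ± 0.16 (q = 0.000249), -0.74 ± 0.16 (q = 0.00779) and -0.87 ± 0.16 (q = 0.00241), and Cers2 -1.13 ± 0.17 (q = 0.000128), -0.67 ± 0.17 (q = 0.0179) and -0.98 ± 0.17 (q = 0.00122). Sgms1 was down on dpi 2 (-1.11 ± 0.20, q = 0.000775) and dpi 42 (-0.85 ± 0.20, q = 0.0123), and Degs1 on dpi 2 (-0.65 ± 0.13, q = 0.00221). On dpi 42 Acly was down, as were Scd1 (-0.61 ± 0.16, q = 0.0229), Elovl5 (-0.57 ± 0.15, q = 0.0238) and Elovl7 (-0.76 ± 0.22, q = 0.0422). Cers4 and Cers6 were up at all 3 times, Cers4 at 1.35 ± 0.20 (q = 0.000124), 1.04 ± 0.20 (q = 0.00272) and 1.21 ± 0.20 (q = 0.000944). Cers6 had 1.38 ± 0.41 (q = 0.0262), 1.86 ± 0.40 (q = 0.0062) and 1.58 ± 0.40 (q = 0.0182). Elovl4 was up on dpi 2 (0.97 ± 0.29, q = 0.0267) and dpi 10 (1.27 ± 0.29, q = 0.00872), and Elovl6 (0.56 ± 0.17, q = 0.0266) and Ugcg (1.01 ± 0.22, q = 0.00343) on dpi 2. Cers1 was up on dpi 10 (1.43 ± 0.39, q = 0.0248) and Me1 on dpi 42 (0.60 ± 0.18, q = 0.0425). On dpi 2 the OL change itself was not called for Elovl1, Elovl4, Elovl6 and Ugcg. Of these, Elovl1 rose in total RNA and the others fell there. Nor was the OL change called for Elovl1, Elovl4 and Cers2 on dpi 10, or for Me1 on dpi 42. Of the 9, 6 and 10 calls, 5, 3 and 4 held under every alternative run, namely Elovl1, Cers2, Cers4, Degs1 and Sgms1 on dpi 2, Elovl1, Cers4 and Cers6 on dpi 10, and Acly, Elovl1, Cers2 and Cers4 on dpi 42. Without the 5 OL libraries high in astrocyte markers the dpi 42 calls of Cers6 (0.89, q = 0.273), Me1 (0.34, q = 0.232) and Sgms1 (-0.70, q = 0.0748) were lost, as were the dpi 2 calls of Cers6 (1.03, q = 0.0778), Elovl4 (0.63, q = 0.0927) and Elovl6 (0.32, q = 0.182).

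Leaving out a single library lost none of the differential calls of Elovl1, Cers4, Degs1, Sgms1 and Acly, nor those of Cers2 on dpi 2 and dpi 42 or of Cers6 on dpi 10, but it lost others. On dpi 2 Elovl4 lost its call without naive total RNA library 1 or 2, any single naive OL library, any single dpi 2 OL library or dpi 2 total RNA library 2 (0.61 to 0.97), and Elovl6 without naive total RNA library 1 or 3, any single naive OL library, dpi 2 total RNA library 1 or 2 or any single dpi 2 OL library (0.26 to 0.55). Cers6 lost it without any single naive OL library, naive total RNA library 3, any single dpi 2 OL library or dpi 2 total RNA library 2 (1.08 to 1.34), and Ugcg without naive OL library 2 (0.69). On dpi 10 Cers1 lost it without naive OL library 1 or 2, naive total RNA library 2, any single dpi 10 OL library or dpi 10 total RNA library 2 or 3 (1.10 to 1.43), Cers2 without naive total RNA library 3 (-0.61) and Elovl4 without dpi 10 OL library 1 (1.06). On dpi 42 Elovl7 lost it without any single naive total RNA library, naive OL library 1, any single dpi 42 total RNA library or dpi 42 OL library 1 (-0.84 to -0.69), and Me1 without naive total RNA library 1 or 2, any single naive OL library, any single dpi 42 OL library or dpi 42 total RNA library 1 or 3 (0.40 to 0.60). Cers6 lost it there without naive OL library 2 or dpi 42 OL library 1 (1.10 to 1.33), Scd1 without naive total RNA library 3 or dpi 42 total RNA library 2 (-0.52 to -0.48) and Elovl5 without naive total RNA library 2 or 3 or dpi 42 total RNA library 2 (-0.55 to -0.48). The number of members up on dpi 2 was 3 without naive total RNA library 1 or 3 and 1 without naive OL library 2. It was 2 if naive OL library 1 or 3, any single dpi 2 OL library or dpi 2 total RNA library 2 was left out. In these runs 3.23% to 6.51% of all genes were up. Members down on dpi 2 numbered 9 without naive OL library 3 and 7 without dpi 2 OL library 1, against 11.1% and 10.3% of all genes. At dpi 10 there were 2 up without dpi 10 OL library 1 (1.77% of all genes) and 1 down without naive total RNA library 3 (2.17%). On dpi 42 there was 1 up without naive OL library 2 or dpi 42 OL library 1 (1.49% and 1.4%). The falls there numbered 14 without naive OL library 3 or dpi 42 OL library 3, against 7.46% and 8.67% of all genes. They numbered 4 without naive total RNA library 3 or dpi 42 total RNA library 2, against 2.25% and 3.63%.

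Time points were also compared directly. From dpi 2 to dpi 10, 4 members rose in OLs and 3 fell (9.55% and 7.92% of all genes). Those that rose were Aspa, Degs1, Ugt8a and Sgms1, which had all fallen on dpi 2, and those that fell were Acly, Scd1 and Me1 (-0.56 ± 0.13, q = 0.00253). From dpi 10 to dpi 42, 2 rose and 4 fell (1.97% and 3.04%). With library sizes alone, 2 rose and 3 fell in the first step, against 8.37% and 9.16% of all genes. In the second 1 rose and 5 fell, against 2.22% and 2.74%. With the total RNA reference 1 rose and 6 fell in the second. Of the 7 calls of the first step Acly, Aspa and Scd1 held under every alternative run, and of the 6 of the second step none did. Thrsp and Srebf1 rose, and Elovl6, Elovl7, Cers2 (-0.55 ± 0.12, q = 0.0107) and Ugt8a fell. Leaving out dpi 42 OL library 3, the dpi 42 OL library low in astrocyte markers, gave 13 falls, and leaving out dpi 42 OL library 1 gave 2. Both rises of that step were lost without any single dpi 10 OL library or dpi 42 OL library 1 or 2. Without dpi 2 OL library 1 the rises from dpi 2 to dpi 10 numbered 7, against 11.8% of all genes. The fall of Me1 from dpi 2 to dpi 10 was lost without dpi 2 OL library 1 (-0.41, q = 0.0331), dpi 2 OL library 2 (-0.39, q = 0.0402) or dpi 10 OL library 3 (-0.41, q = 0.0414).

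Other genes of the same pathways were taken from lists kept apart from the module. The shares of all genes called in OLs were 15.9%, 8.55% and 13.7% up and 16.4%, 5.55% and 13% down at dpi 2, 10 and 42, as given above for the members. Of 30 other genes of fatty acid synthesis and SREBP control, 4, 3 and 6 rose and 8, 8 and 9 fell in OLs at dpi 2, 10 and 42. Insig1, a sterol-responsive retention protein of the SREBP system, had -1.80 ± 0.17 (q = 1.98e-07) on dpi 42, and Srebf2, which codes for SREBP2, -1.04 ± 0.09 (q = 7.45e-08). Tkt, a transketolase of the pentose phosphate pathway, had -0.78 ± 0.09 (q = 2.35e-06) on dpi 10. Among those that rose, Acsl5, an acyl-CoA synthetase, had 2.77 ± 0.33 (q = 9.33e-07) on dpi 2. Dgat2, which makes triacylglycerol, had 1.33 ± 0.20 (q = 8.36e-05) on dpi 10, and Insig2 0.75 ± 0.15 (q = 0.000491) on dpi 2. Acsl5 was OL depleted in naive tissue and at all 3 times after injury, and Insig2 in naive tissue and on dpi 10. The differential enrichment of both was called up on dpi 2. Of 11 other genes of elongation and desaturation, there were 1 rise and 2 falls on dpi 2, 1 rise on dpi 10, and 1 rise and 2 falls on dpi 42. Fads6, a desaturase-like gene, had -0.98 ± 0.13 (q = 3.22e-06) on dpi 2 and Hsd17b12, a ketoacyl-CoA reductase of the elongation cycle, -0.53 ± 0.08 (q = 6.26e-05) on dpi 42. The dehydratase Hacd2 fell on dpi 2 (-0.66 ± 0.23, q = 0.029), while its relatives Hacd1 on dpi 2 (0.78 ± 0.29, q = 0.0361) and Hacd4 on dpi 42 (4.12 ± 0.76, q = 0.000263) rose. Hacd4 was OL depleted in naive tissue and at all 3 times after injury. It also rose in total RNA at all 3 times, and its differential enrichment was not called. All 12 myeloid markers were called up in OLs on dpi 42, and their part in the rise of Hacd4 was not tested. Of 17 other genes of sphingolipid synthesis and transfer, there were 3 rises on dpi 2, 2 rises and 1 fall on dpi 10, and 3 rises and 1 fall on dpi 42. On dpi 2 B4galnt1, which makes complex gangliosides, rose by 1.24 ± 0.20 (q = 5.48e-05) and Gltp, a glycolipid transfer protein, by 0.93 ± 0.15 (q = 5.97e-05). Ormdl3, an inhibitor of serine palmitoyltransferase, rose by 0.81 ± 0.14 (q = 0.000118) on dpi 42. Sptssb, a small subunit of that enzyme, fell on dpi 10 (-3.91 ± 1.24, q = 0.032), and the acetyl-CoA transporter Slc33a1 fell on dpi 42 (-0.69 ± 0.13, q = 0.000339). B4galnt1 and Sptssb were OL depleted in naive tissue and at all 3 times after injury. The differential enrichment of B4galnt1 was called up on dpi 2.

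Of 24 genes of sphingolipid breakdown, there were 3 rises and 6 falls in OLs on dpi 2, 2 rises and 1 fall on dpi 10, and 3 rises and 2 falls on dpi 42. Galc, which degrades galactosylceramide, fell by 0.92 ± 0.09 (q = 1.63e-07) on dpi 2, when Ugt8a fell as well, and Asah2, a neutral ceramidase, by 2.0 ± 0.21 (q = 1.71e-07). Smpd1, the acid sphingomyelinase, fell by 0.52 ± 0.09 (q = 7.8e-05) on dpi 42. Sphk1, a sphingosine kinase, rose by 5.23 ± 0.64 (q = 1.54e-06) on dpi 2. It was OL depleted in naive tissue and on dpi 10 and dpi 42, but not on dpi 2. Hexa, a lysosomal hexosaminidase subunit, rose by 0.83 ± 0.12 (q = 1.76e-05) on dpi 42, when it was OL depleted. In total RNA 7, 9 and 6 of these genes rose and 3, 2 and 1 fell, against 14.3%, 12.4% and 9.15% of all genes up and 17%, 13.3% and 7.76% down. There Hexa rose by 2.84 ± 0.13 on dpi 10. In differential enrichment 8, 7 and 7 of them were down, Hexa among them each time, against 5.68%, 2.94% and 3.34% of all genes. Myeloid markers rose in the same total RNA libraries, from 196 to 234 CPM in naive tissue to 5058 to 7155 CPM on dpi 10. All 12 were also called up in OLs on dpi 10 and dpi 42. Their part in the changes of the breakdown genes was not tested.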

How the data were processed

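Spinal cord RNA of 24 libraries was analysed as deposited: per the paper's methods and the submitters' processing notes, the authors checked reads with FastQC 0.10.1, aligned them with STAR to mm10, made gene counts with HTSeq 0.10.0, and deposited these raw counts without normalization. Strandedness is not given in the sources used here, and the authors' own tests used DESeq2. The floor of 3 counts covers counting error only.

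Here, the 17167 genes whose counts over all libraries reached 10 were kept, scaled by TMM and fitted in R 4.3.3 with edgeR 4.0.16 quasi-likelihood models of 8 group means. Contrasts gave OL enrichment (OL against total RNA), OL and total change (against naive), their difference, and time against time. All changes against naive share the naive libraries. SE is the absolute log2 fold change divided by the square root of F. CPM are TMM-scaled, and per-kb levels use merged GENCODE M21 exon lengths. The code was tested on simulated data.

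Members and lists were chosen with earlier results of these data known. Values per library are given for members called in an OL change or in differential enrichment, and, chosen after their values were seen, for Fads1 and Thrsp. The remaining members have ranges, and other lists name at most 3 genes up and 3 down of smallest p, of which 1 is not reported here. Each pool held 2 mice, so p-values measure the spread between pools. OL and total RNA of a pool come from the same mice, as the tissue numbers in the column names show. The correlation of their deviations from group means was -0.01 to 0.14 within the pools, and the unblocked fit, set because labels of 2 dpi 42 libraries conflict, was kept. Alternatives were DESeq2 1.42.0 (test or size factors), library sizes alone, other filters, separate group fits, a length and GC offset, replicate blocks, omitted libraries and, added after seeing the data, a total RNA reference for TMM and omission of the 5 OL libraries whose astrocyte markers summed to over 7000 CPM. Promoter stretches are from RefSeq on GRCm38.p6.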

Additional observations from a re-analysis of the deposited data

Results flagged for a closer look

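Differences between the OL change and the total RNA change, tested as an interaction, were called up for 5 and down for 4 members on dpi 2. They were up for 4 and down for 2 on dpi 10, and up for 3 and down for 7 on dpi 42. The shares of all genes were 7.57% up and 5.68% down, 4.27% and 2.94%, and 4.12% and 3.34%. Between time points, 4 members were called up and 3 down in OLs from dpi 2 to dpi 10, against 9.55% and 7.92% of all genes. From dpi 10 to dpi 42, 2 were up and 4 down, against 1.97% and 3.04%. No test for a single outlying sample was run, since each group holds 3 libraries.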

How the results depend on the processing

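The 243 member calls were recomputed 4190 times over all alternatives, of which 3838 kept direction and call, 347 lost the call and 5 turned sign, and 159 calls held under every alternative. The 5 that turned were Sgms2 in naive OL enrichment with library sizes alone (-0.0025), Cers5 in OL enrichment on dpi 10 with library sizes alone (-0.069), Fads2 in the OL change on dpi 2 without naive OL library 3 (0.086, with -2.15 as the lowest value over single omissions), and Acaca (0.14) and Cers4 (0.0023) in the total change on dpi 2 under the length and GC offset. For calls that were lost or turned, the cause was not tested. Library sizes alone moved the median of all genes by -0.58 to -0.50 log2 in OL enrichment and by 0.11 to 0.17 in OL changes. Member counts up and down that moved by over 1.5 times were as follows. With library sizes alone, OL falls on dpi 2 were 6 (11.3% of all genes). Total changes on dpi 2 were 6 up and 3 down (19% and 9.77% of all genes) and on dpi 10 2 up (15.4%). Rises were 2 from dpi 2 to dpi 10 (8.37%) and 1 from dpi 10 to dpi 42 (2.22%). With only the compared groups fitted, OL rises were 2 on dpi 2 (13.1% of all genes) and 2 on dpi 10 (6.34%). Total rises were 5 on dpi 2 (21.6%) and 2 on dpi 10 (21.6%), and rises from dpi 2 to dpi 10 were 2 (6.31%). From dpi 10 to dpi 42 edgeR called 0 up and 2 down (0.156% and 0.234%). The length and GC offset gave 7 OL rises on dpi 2 (14.4% of all genes), 1 total rise on dpi 2 (14%) and 4 total falls on dpi 42 (6.7%). DESeq2 size factors and its Wald test gave 2 total rises on dpi 10. The next 2 settings were chosen after seeing the data. TMM with a total RNA reference gave total changes of 7 down on dpi 2 (12.2% of all genes) and 2 up on dpi 10 (14.9%). Differential enrichment was 2 up on dpi 2 (3.67%), 4 down on dpi 10 (6.02%) and 12 down on dpi 42 (8.07%). From dpi 10 to dpi 42 there was 1 rise. Without the 5 OL libraries high in astrocyte markers, 11 members were depleted in naive tissue, total rises were 5 on dpi 2 and 2 on dpi 10, differential enrichment was 3 up and 10 down on dpi 2 and 6 down on dpi 10, rises from dpi 2 to dpi 10 were 9, and from dpi 10 to dpi 42 there were 0 up and 1 down; the lone dpi 42 OL library was assumed to vary like the other groups. Without dpi 2 pool 2, differential enrichment on dpi 2 was 3 up and rises from dpi 2 to dpi 10 were 2. Without the dpi 42 libraries of conflicting labels, differential enrichment on dpi 42 was 1 up and 4 down, and from dpi 10 to dpi 42 there were 0 up and 1 down. Leaving out single libraries gave 2 to 5 OL rises on dpi 10, 3 to 5 OL rises on dpi 42, 1 to 2 total rises on dpi 10, differential enrichment of 1 to 5 up and 4 to 9 down on dpi 2, 2 to 4 up and 1 to 3 down on dpi 10 and 1 to 3 up and 4 to 14 down on dpi 42, 3 to 7 rises from dpi 2 to dpi 10, and 0 to 2 rises and 2 to 13 falls from dpi 10 to dpi 42. Where edgeR called 0 rises from dpi 10 to dpi 42, 1 to 3 had an unadjusted p under 0.05, and the DESeq2 Wald test on all libraries called 2.

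With the tissue pool as a replicate block, possible for OL against total RNA, the calls lost were Degs2 (-3.60, q = 0.085) and Sgms2 (0.50, q = 0.0671) in naive OL enrichment, of 146 recomputed. With the replicate number as a block, which pairs no mice between groups, 3 of 97 were lost: Fads2 in the OL change on dpi 2 (-1.51, q = 0.0669), Gpam on dpi 10 (-0.97, q = 0.0581) and Thrsp from dpi 10 to dpi 42 (1.31, q = 0.0516), which left 1 rise in that step.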
